A study of Homo sapiens with 9 samples.

Results

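Described here are 10 genes of the YAP and Hippo pathway, taken by symbol from a table of 58174 genes: CYR61, CTGF, ANKRD1, AMOTL1, AMOTL2, AXL, LATS2, AJUBA, TEAD1 and YAP1. All 10 were found, each as 1 row. RNA was sequenced from 9 libraries labelled HepG2, a hepatoblastoma-derived human line; the cells were kept in serum-containing DMEM. There were 3 libraries from a line overexpressing NFE2L1DC, 3 from a line overexpressing NFE2L1 and 3 from control cells. The protocol names the control cells after pLVX, a lentiviral vector, while their genotype label reads WT. NFE2L1 is a membrane-anchored transcription factor known for inducing proteasome genes. In the labels NFE2L1DC carries a delta ahead of the C, a common way to write a C-terminal deletion, and no source used here gives its extent. Whether a line is a clone or a pool is not stated. Nor is it stated that replicates came from separate cultures, and a p-value here reflects the spread of these libraries, which may be technical. The series title asks about an activity of NFE2L1 other than transcription.

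In the Hippo pathway, the kinases encoded by STK3 and STK4 activate the kinases encoded by LATS1 and LATS2, which phosphorylate the coactivators YAP (gene YAP1) and TAZ (gene WWTR1) and keep them out of the nucleus. When the kinases are inactive, YAP and TAZ enter the nucleus, bind TEAD factors and switch on genes such as CYR61 and CTGF. In mouse liver the pathway limits organ size, and active YAP drives liver tumours. YAP is controlled mainly by phosphorylation and location, which RNA levels do not measure.

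The values are TPM, a transcript abundance per length scaled to the same total in each library by the authors, so levels can be set beside each other between genes. The table holds no read counts, so the depth behind a value is unknown. Genes with at least 1 TPM in at least 3 libraries, 14118 in all, were tested with limma on log2(TPM + 1), and "changed" means an adjusted p under 0.05 over all of them. Of the 10 genes, 9 were tested, and all 9 had at least 1 TPM in every library. ANKRD1 was too low to be tested. In bulk RNA, fewer cells with a transcript and less of it per cell cannot be told apart. NFE2L1 itself had 445, 427 and 472 TPM in the NFE2L1DC line, 207, 181 and 354 TPM in NFE2L1 cells and 104, 81.7 and 64.0 TPM in control cells, so the overexpressed gene was higher in all 6 libraries of the lines.

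The cells did not carry the RNAs that define liver cells. The 8 hepatocyte and HepG2 markers ALB, AFP, APOA1, APOB, TTR, SERPINA1, HNF4A and FGB summed to 0.0578 to 0.227 TPM in the NFE2L1DC libraries, 0.0312 to 0.285 TPM in the NFE2L1 libraries and 0.0452 to 0.114 TPM in the control libraries. ALB, APOB, TTR, SERPINA1 and FGB were listed at 0 in all 9 libraries. These markers go against the label HepG2, and the libraries are called by their labels only. Of 7 fibroblast and stellate markers, COL1A2 was listed at 0 in all libraries, and the list summed to 86.0 to 102 TPM in the NFE2L1DC line, 92.1 to 106 TPM in NFE2L1 cells and 127 to 148 TPM in control cells. COL3A1 provided most of it and fell in both lines, and PDGFRB fell with NFE2L1, to 3.64 ± 1.20 TPM, against 6.81 ± 0.781 TPM in control cells (SD, n = 3 each; limma adjusted p = 0.0406, called in 7 of 18 alternatives). Of this list 4 genes were tested, with 1 lower for NFE2L1DC, 2 lower for NFE2L1 and none higher. The COL3A1 call held in 16 of 18 alternatives for each line. The 5 endothelial markers summed to at most 0.671 TPM, the 4 kidney line markers to at most 0.116 TPM, and of the blood markers CD68 alone was above 0. The part of these marker levels in the results below was not tested.

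The control libraries did not lie together. On the main axis of variation over the tested genes, control replicates 1 and 2 were both at -43.8. Control replicate 3 was at 5, and the overexpressing libraries were at -1.2 to 23. On the second axis control replicate 3 stood apart from all the others, at -37.9, while they were at -3.6 to 10.9. The first axis held 41.9% of the variance and the second 13.4%. Which control libraries are typical was not tested. Over 11445 protein-coding genes, the changes from control ran against the GC content of the transcripts. Spearman's rho was -0.37 for NFE2L1DC and -0.44 for NFE2L1. Over the same genes, control replicate 3 differed from control replicates 1 and 2 in the same way, at rho = -0.67, all read from those 3 libraries. With control replicate 3 left out, 3440 genes changed for NFE2L1DC against control, compared with 509 with all libraries. For NFE2L1 against control 5056 changed, compared with 1468. Calls on the 10 genes that changed without this library are given both ways. The comparisons of the NFE2L1DC line and of the NFE2L1 line with control share the same 3 control libraries, so they are not independent.

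CYR61, CTGF and AMOTL2 rose in both overexpressing lines, by 1.84 to 2.89 times in mean TPM. They were the only 3 of the 9 tested genes that changed, and none of the 9 fell. Over all genes tested, 3.61% changed for NFE2L1DC against control (2.06% higher, 1.54% lower) and 10.4% for NFE2L1 against control (7.83% higher, 2.57% lower). With NFE2L1DC, 4 of the 9 lay above control without overlap between libraries and 1 below it, beside 13.7% and 8.98% of all genes. With NFE2L1, 3 lay above and 2 below, beside 22.6% and 9.53%. AXL, LATS2, TEAD1, YAP1, AMOTL1 and AJUBA did not pass the test in either comparison. By unadjusted p under 0.05, limma gave 5 higher and 1 lower with NFE2L1DC, beside 14.5% and 7.26% of all genes. It gave 4 higher and 1 lower with NFE2L1, beside 23% and 7.42%.

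**Figure D1:**
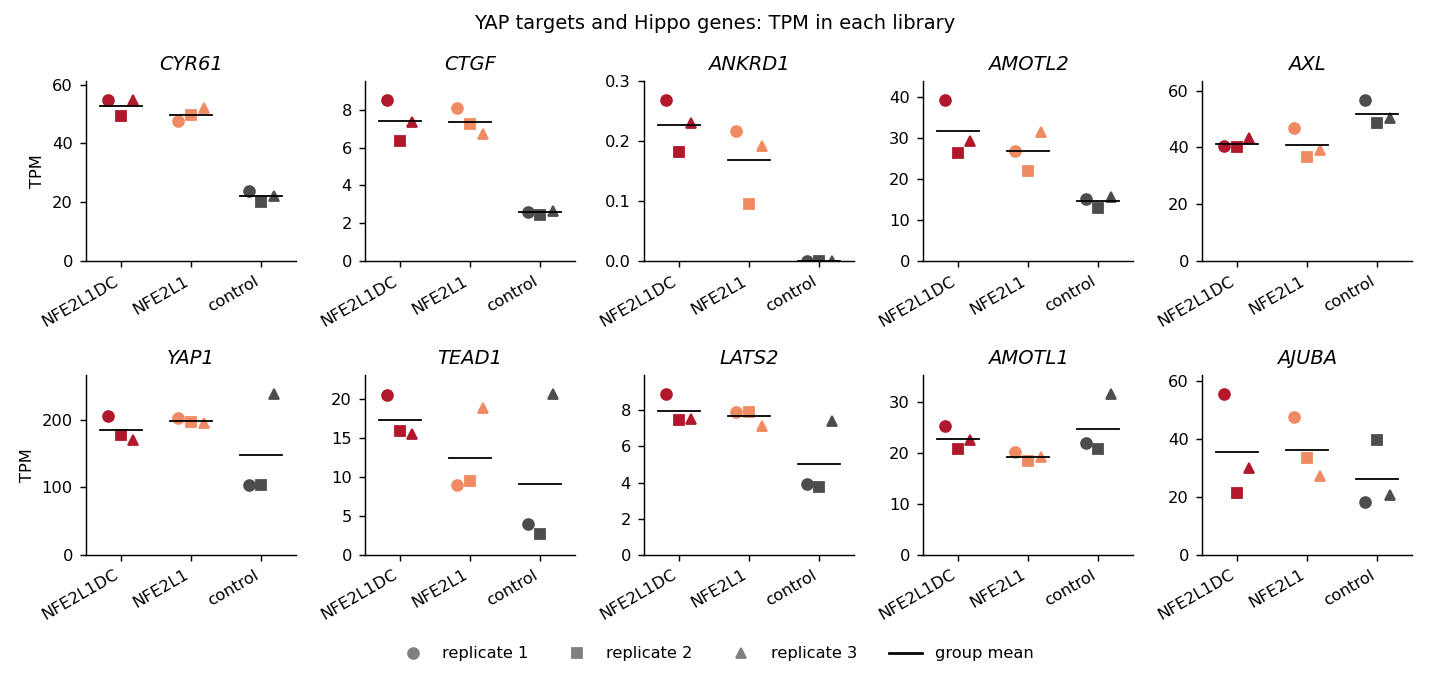
TPM (y axis, from 0) of the 10 genes in each of the 9 libraries, with the replicate shown by the marker and the group mean by a line. CYR61, CTGF and AMOTL2 are higher in all 6 overexpressing libraries than in any control library, while control replicate 3 is the highest of the 9 libraries for YAP1, TEAD1 and AMOTL1.

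CYR61, also named CCN1 (ENSG00000142871, chr1:85580761-85583962, plus strand), encodes a secreted matrix protein of the CCN family and is a direct YAP target. Gene positions here are those of GENCODE 29 on GRCh38. CYR61 had 54.6, 49.1 and 54.6 TPM in the NFE2L1DC libraries, 47.5, 49.6 and 51.9 TPM in the NFE2L1 libraries and 23.7, 20.2 and 22.2 TPM in the control libraries. The 6 overexpressing libraries lay close together, all about as far above the 3 control libraries. The log2 fold change was 1.23 (SE 0.09, limma adjusted p = 0.000421) for NFE2L1DC and 1.14 (SE 0.09, limma adjusted p = 0.000157) for NFE2L1. The fold in mean TPM was 2.40 and 2.25. Control replicate 3 did not stand apart here: the NFE2L1DC mean was 2.23, 2.62 and 2.38 times control replicates 1, 2 and 3, and the NFE2L1 mean was 2.09, 2.46 and 2.24 times.

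CTGF, also named CCN2 (ENSG00000118523, chr6:131948176-131951373, minus strand), encodes another secreted CCN protein, known as a matrix and fibrosis factor. It had 8.52, 6.35 and 7.36 TPM in the NFE2L1DC libraries, 8.10, 7.27 and 6.75 TPM in the NFE2L1 libraries and 2.59, 2.46 and 2.65 TPM in the control libraries. The groups did not overlap, and the control libraries had an SD of 0.0975 TPM (n = 3). The log2 fold change was 1.23 for both lines (SE 0.14, limma adjusted p = 0.00331 for NFE2L1DC and 0.00108 for NFE2L1). The fold in mean TPM was 2.89 and 2.87. With control replicate 3 as the only control library, a setting added after seeing the data, the CTGF change with NFE2L1DC was 1.20 (adjusted p = 0.0575). CTGF was below CYR61 in every library, but its ratio to CYR61 was higher in all overexpressing libraries than in any control library. The ratio of CTGF to CYR61 was 0.140 ± 0.0141 in the NFE2L1DC line, 0.149 ± 0.0203 in the NFE2L1 line and 0.117 ± 0.00677 in control cells (SD, n = 3 each).

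TEAD factors bind the letters GGAATG, and the window of RefSeq (GRCh38.p14) from 250 bases before to 50 bases after the CTGF start holds this motif 3 times. Either strand was counted. Of 35116 such windows, 14% hold at least 1 match and 0.128% at least 3. The stretch of the CTGF window with its matches is given because it carries the densest set of matches among these genes, with the matches in capitals. It lies at chr6:131951442-131951561 on the minus strand, from 189 to 70 bases before the start.
CTGF: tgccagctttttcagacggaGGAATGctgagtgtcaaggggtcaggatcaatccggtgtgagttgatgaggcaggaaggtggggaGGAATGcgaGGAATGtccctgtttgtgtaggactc
RefSeq windows were matched for 8 of the 10 genes, in 11 windows, and not for CYR61 and TEAD1. A match is a description of letters and not a measured binding site. The windows were also searched on both strands for the AP-1 motif TGANTCA, the antioxidant response core TGACNNNGC and the CArG box bound by SRF. At least 1 match was held by 7.71%, 13.3% and 1.29% of all windows. Among these genes AP-1 matched in the ANKRD1 window, the antioxidant response core in a window of AXL and in that of LATS2, and the CArG box in none.

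ANKRD1 (ENSG00000148677, chr10:90912096-90921276, minus strand) encodes a nuclear ankyrin-repeat protein of muscle and is another direct YAP target. It was listed at 0 in the 3 control libraries, and no fold is given. It had 0.268, 0.183 and 0.230 TPM in the NFE2L1DC libraries and 0.218, 0.0953 and 0.191 TPM in the NFE2L1 libraries. All 6 overexpressing libraries were thus above 0 at a very low level. In the fit without a filter on low values, ANKRD1 had limma adjusted p = 0.0308 for NFE2L1DC and 0.0446 for NFE2L1, at log2(TPM + 1) differences of 0.29 and 0.22. With all 3 control values at 0, the floor hides any spread of the control libraries, so these p-values cannot measure it. No conclusion on ANKRD1 is drawn from them. The ANKRD1 window holds GGAATG in 2 places, and 1.37% of all windows hold at least 2. They are shown with 12 bases on either side, at chr10:90921290-90921319 and chr10:90921198-90921227 on the minus strand. The nearer stretch overlaps an annotated ANKRD1 exon.
ANKRD1, farther match: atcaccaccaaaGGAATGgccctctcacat
ANKRD1, nearer match: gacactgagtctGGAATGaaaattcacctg

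AMOTL2 (ENSG00000114019, chr3:134355874-134375479, minus strand) encodes a motin that binds YAP and activates LATS kinases, and its gene is a YAP target that acts back on the pathway. It had 39.3, 26.5 and 29.2 TPM in the NFE2L1DC libraries, 27.0, 22.0 and 31.6 TPM in the NFE2L1 libraries and 15.2, 12.9 and 15.7 TPM in the control libraries. The lowest overexpressing library stood above the highest control library, with more spread than for CYR61. The log2 fold change was 1.05 (SE 0.17, limma adjusted p = 0.0165) for NFE2L1DC and 0.83 (SE 0.17, limma adjusted p = 0.0206) for NFE2L1. The call was less stable than those of CYR61 and CTGF: it held in 13 of 18 alternatives for NFE2L1DC and in 12 of 18 for NFE2L1, with adjusted p up to 0.172 and 0.224 with control replicate 3 as the only control. For NFE2L1DC it was also lost without NFE2L1DC replicate 1 (adjusted p = 0.0557) or 3 (0.0601), without control replicate 2 (0.0803) and in the fit of those groups alone (0.0506). For NFE2L1 it was lost without NFE2L1 replicate 1 (0.0729) or 3 (0.0802), without control replicate 1 (0.0568) or 2 (0.0836) and with no filter on low values (0.0542).

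AMOTL1 (ENSG00000166025, chr11:94706431-94876753, plus strand) encodes a related motin and did not move with AMOTL2. It had 25.2, 20.7 and 22.5 TPM in the NFE2L1DC libraries, 20.05, 18.5 and 19.2 TPM in the NFE2L1 libraries and 21.8, 20.7 and 31.5 TPM in the control libraries. All NFE2L1 libraries lay below the lowest control library, and the NFE2L1DC libraries overlapped with control. AMOTL1 differed from control by -0.09 on the log2 scale for NFE2L1DC (limma adjusted p = 0.749) and by -0.32 for NFE2L1 (adjusted p = 0.199). Under median-of-ratios scaling it was called lower with NFE2L1, at -0.50 (adjusted p = 0.0342). Without control replicate 3 it was at 0.09 (adjusted p = 0.565) for NFE2L1DC and -0.14 (adjusted p = 0.343) for NFE2L1. A ratio within a library is free of any scaling of that library. The ratio of AMOTL2 to AMOTL1 was 1.56, 1.28 and 1.30 in the NFE2L1DC libraries, 1.35, 1.19 and 1.65 in the NFE2L1 libraries and 0.697, 0.625 and 0.498 in the control libraries. AMOTL2 was thus above AMOTL1 in all 6 overexpressing libraries and below it in all 3 control libraries. AMOT, the remaining motin, was listed at 0 in all 9 libraries. Of the AMOTL2 and AMOTL1 windows, 1 of the 2 AMOTL2 windows holds GGAATG on the opposite strand (read here as CATTCC), at chr3:134374499-134374528 on the minus strand, and the AMOTL1 window holds none. The AMOTL2 stretch overlaps an annotated AMOTL2 exon.
AMOTL2: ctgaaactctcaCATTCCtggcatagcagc

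AXL (ENSG00000167601, chr19:41219203-41261766, plus strand) encodes a receptor tyrosine kinase for GAS6 and is a YAP target in several cancers, but its values did not go with those of CYR61. It had 40.6, 40.0 and 43.4 TPM in the NFE2L1DC libraries, 47.0, 36.6 and 39.0 TPM in the NFE2L1 libraries and 56.6, 48.7 and 50.4 TPM in the control libraries. All 6 overexpressing libraries lay below the lowest control library. AXL differed from control by -0.32 on the log2 scale (limma adjusted p = 0.142) for NFE2L1DC and -0.34 (adjusted p = 0.0770) for NFE2L1. Neither passed the test with all libraries. For NFE2L1 it did without control replicate 3, at -0.36 (adjusted p = 0.0482), and under median-of-ratios scaling, at -0.52 (adjusted p = 0.0476). The ratio of CYR61 to AXL was 1.28 ± 0.0609 in the NFE2L1DC line, 1.23 ± 0.192 in the NFE2L1 line and 0.424 ± 0.0135 in control cells (SD, n = 3 each), so CYR61 was above AXL in every overexpressing library and below it in every control library. Median-of-ratios scaling called 0.843% of all genes higher and 1.40% lower with NFE2L1DC, and 3.84% and 3.73% with NFE2L1. The AXL window at start 41219223 holds no GGAATG match. The window at start 41226755 holds 1 on the opposite strand, at chr19:41226531-41226560.
AXL: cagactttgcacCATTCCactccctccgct

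**Figure D2:**
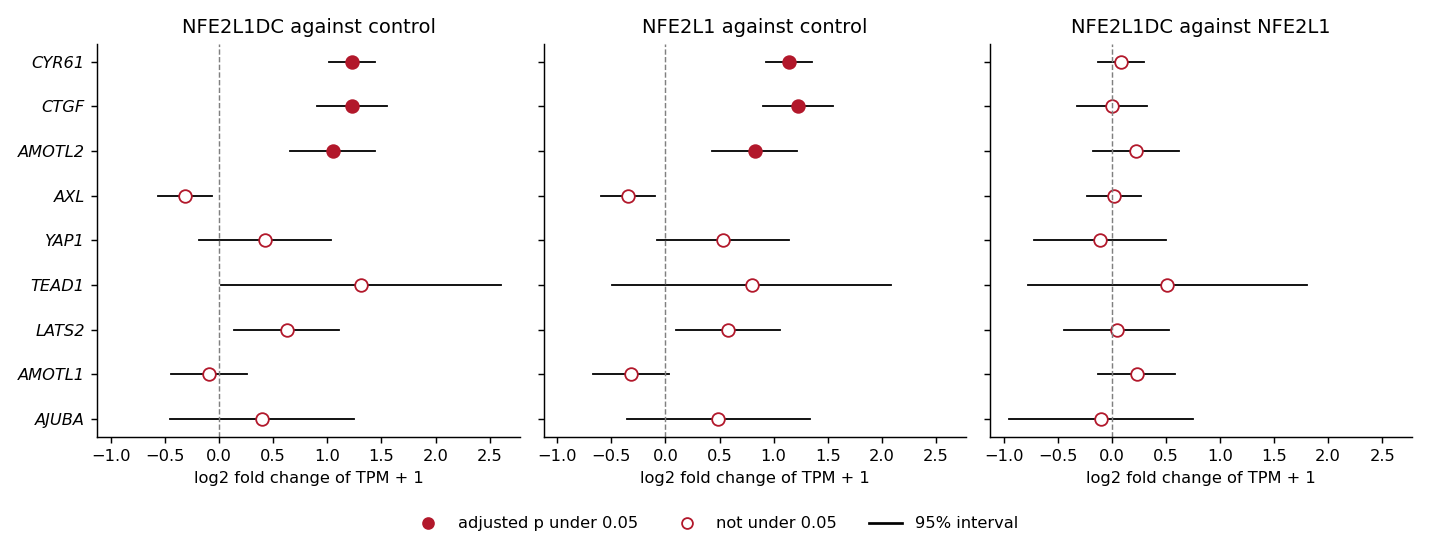
Log2 fold change of TPM + 1 (x axis) of the 9 genes tested in the 3 comparisons, with the limma 95% confidence interval. CYR61, CTGF and AMOTL2 are called in both comparisons with control, and no gene is called in the comparison of the lines with each other.

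YAP1 (ENSG00000137693, chr11:102110461-102233423, plus strand) encodes YAP itself and was the most abundant of the 10 genes in all 3 groups. It had 205, 177 and 170.5 TPM in the NFE2L1DC libraries, 202, 196 and 195 TPM in the NFE2L1 libraries and 103, 103 and 238 TPM in the control libraries. Control replicate 3 lay above all overexpressing libraries, and control replicates 1 and 2 lay below them all. YAP1 differed by 0.42 on the log2 scale (SE 0.27, limma adjusted p = 0.384) for NFE2L1DC and 0.53 (SE 0.27, adjusted p = 0.215) for NFE2L1. Without control replicate 3 it was 0.82 (adjusted p = 0.00179) and 0.93 (adjusted p = 0.000394), and against control replicate 3 alone it was -0.37 (adjusted p = 0.225) and -0.26 (adjusted p = 0.332). The direction for YAP1 thus depended on which control libraries were used. The YAP1 window holds 1 GGAATG match, at chr11:102110273-102110302 on the plus strand, in a stretch that overlaps an annotated exon of AP001527.2.
YAP1: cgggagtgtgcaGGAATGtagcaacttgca

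TEAD1 (ENSG00000187079, chr11:12674591-12944483, plus strand) encodes a TEAD factor through which YAP binds DNA. It had 20.5, 15.9 and 15.5 TPM in the NFE2L1DC libraries, 8.91, 9.48 and 18.9 TPM in the NFE2L1 libraries and 3.98, 2.65 and 20.6 TPM in the control libraries. Single libraries stood far from their group in both the NFE2L1 line and control cells. TEAD1 differed by 1.31 on the log2 scale (SE 0.57, limma adjusted p = 0.224) for NFE2L1DC and 0.80 (SE 0.57, adjusted p = 0.363) for NFE2L1. Without control replicate 3 it was 2.09 (adjusted p = 0.00428) and 1.58 (adjusted p = 0.00541), and against that library alone -0.25 (adjusted p = 0.775) and -0.76 (adjusted p = 0.383). TEAD1 deviated in control replicate 3 from the other 2 control libraries by 2.34 on the log2 scale, more than 99.9% of the 11445 protein-coding genes.

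LATS2 (ENSG00000150457, chr13:20973032-21061547, minus strand) encodes a kinase that phosphorylates YAP and is itself a YAP target. It had 8.91, 7.48 and 7.52 TPM in the NFE2L1DC libraries, 7.94, 7.93 and 7.16 TPM in the NFE2L1 libraries and 3.92, 3.73 and 7.39 TPM in the control libraries. Control replicates 1 and 2 were the lowest, while control replicate 3 lay above 1 NFE2L1 library and just below all 3 NFE2L1DC libraries. LATS2 differed by 0.62 on the log2 scale (SE 0.21, limma adjusted p = 0.139) for NFE2L1DC and 0.58 (SE 0.21, adjusted p = 0.110) for NFE2L1. Without control replicate 3 it was 0.89 (adjusted p = 0.00408) and 0.85 (adjusted p = 0.00199). In that fit 20.4% of all genes were called higher and 4.32% lower for NFE2L1DC, and 30.6% and 5.73% for NFE2L1. Within a library, the ratio of LATS2 to YAP1 stayed between 0.0311 and 0.0441 in all 9. The LATS2 window holds 1 GGAATG match, whose first base lies 10 bases after the start.

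AJUBA (ENSG00000129474, chr14:22971174-22982642, minus strand) encodes a LIM protein that restrains LATS kinases. It had 55.4, 21.1 and 29.8 TPM in the NFE2L1DC libraries, 47.4, 33.5 and 27.1 TPM in the NFE2L1 libraries and 18.3, 39.5 and 20.7 TPM in the control libraries. The groups overlapped, and the spread within each was as wide as any difference between them. AJUBA differed by 0.39 on the log2 scale (SE 0.38, limma adjusted p = 0.558) for NFE2L1DC and 0.49 (SE 0.38, adjusted p = 0.394) for NFE2L1. The AJUBA window at start 22982551 holds no GGAATG match. The window at start 22976842 holds 1, at chr14:22976884-22976913 on the minus strand, in a stretch that overlaps an annotated AJUBA exon.
AJUBA: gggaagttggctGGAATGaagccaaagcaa

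The deviation of control replicate 3 was set beside the GC content of each gene, and the part of GC content in these results was not tested. The longest GENCODE transcripts of TEAD1 and YAP1 have 41.3% and 43.5% GC, beside a median of 49.2% over the protein-coding genes tested. Genes within 1 percentage point of GC of these 2 deviated in control replicate 3 by a median of 0.69 and 0.60, beside 2.34 for TEAD1 and 1.20 for YAP1. CYR61, at 50.3% GC, and CTGF, at 51.5%, deviated by 0.02 and 0.05. LATS2, at 51.8% GC, deviated by 0.80 although genes of its GC content had a median of 0.06. With GC content and length corrected in each library, 3.54% of all genes were higher and 1.18% lower for NFE2L1DC, and 10.6% and 1.91% for NFE2L1. The same 3 genes were called, CYR61 at 1.25 and 1.16, CTGF at 1.26 and 1.27 and AMOTL2 at 1.09 and 0.91 for NFE2L1DC and NFE2L1. YAP1 was then at 0.28 and 0.33 and TEAD1 at 1.13 and 0.56, none of them called.

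**Figure D3:**
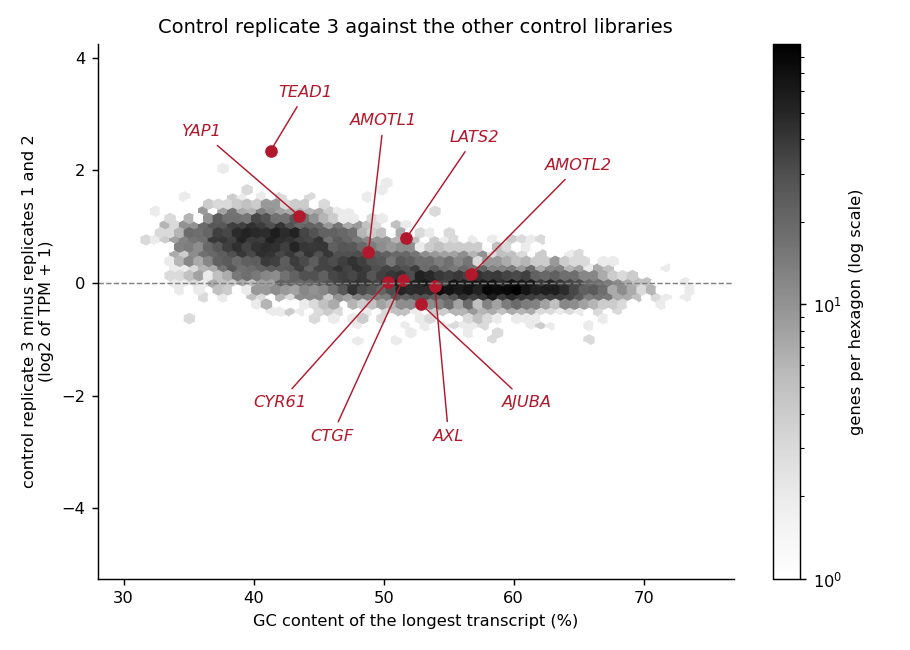
Difference between control replicate 3 and the mean of control replicates 1 and 2 (y axis, log2 of TPM + 1) against the GC content of the longest transcript (x axis) for 11445 protein-coding genes, shown as hexagons shaded by the number of genes on a log scale. TEAD1 lies above the cloud at 2.34, YAP1 at its upper edge at 1.20, and CYR61 and CTGF lie near 0.

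**Figure D4:**
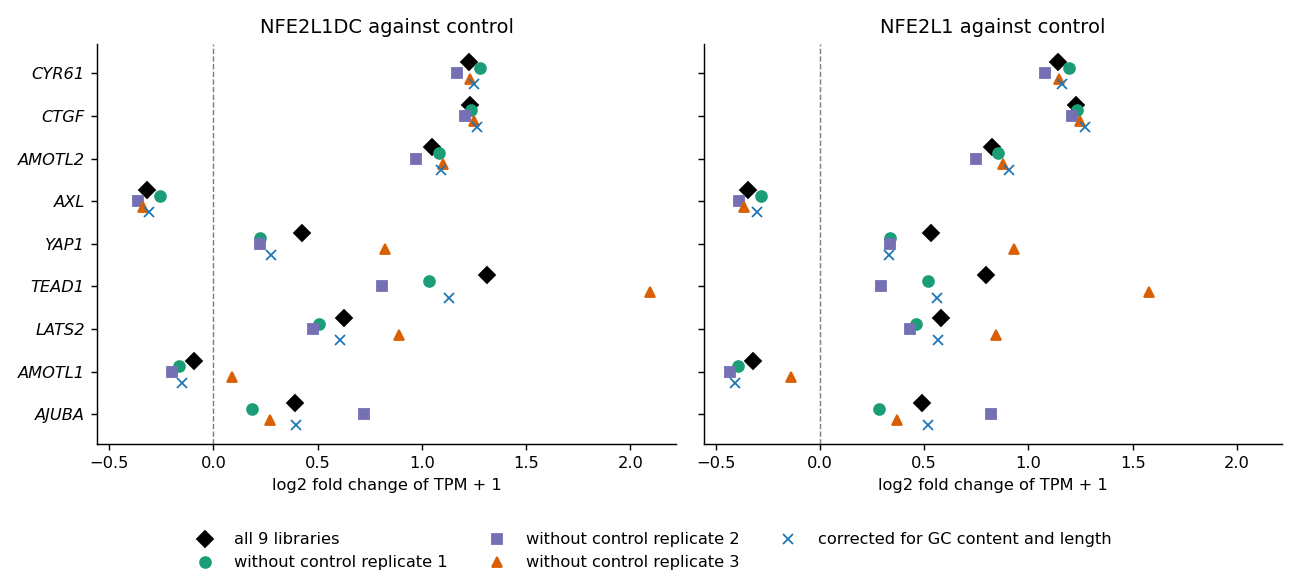
Log2 fold change of TPM + 1 (x axis) of the 9 genes against control with all libraries, without each control library in turn, and with GC content and length corrected. CYR61, CTGF and AMOTL2 stay above 0.7 in all of them, while TEAD1 runs from 0.81 to 2.09 for NFE2L1DC and from 0.29 to 1.58 for NFE2L1 depending on the control library left out.

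The order of levels also differed between groups. In the NFE2L1DC and NFE2L1 lines CYR61 ranked next below YAP1, without overlap with AXL below it. In control cells CYR61 ranked below YAP1, AXL, AJUBA and AMOTL1, and its libraries did not reach those of AXL. Neighbours whose libraries overlapped in all 3 groups were AJUBA with the motin ranked next to it. LATS2 and CTGF overlapped in both overexpressing lines and did not in control cells.

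The lines were then set against each other. NFE2L1 RNA was at 448 ± 22.9 TPM with NFE2L1DC and 247 ± 93.5 TPM with NFE2L1 (SD, n = 3 each; limma adjusted p = 0.228), and the libraries of the lines did not overlap, so the form and the level of NFE2L1 cannot be told apart. None of the 9 genes was called by limma, and none had an unadjusted p under 0.05, beside 2.39% of all genes higher and 5.8% lower. Over all genes 0.793% were called, 0.0779% higher and 0.715% lower. AMOTL1 alone did not overlap between the lines, being higher with NFE2L1DC, beside 5.55% of all genes higher and 12.4% lower without overlap. The log2 fold change of NFE2L1DC against NFE2L1 was 0.09 for CYR61 (95% confidence interval -0.13 to 0.30) and 0.00 for CTGF (-0.32 to 0.33). For AMOTL2 it was 0.22 (-0.17 to 0.62) and for TEAD1 0.51 (-0.78 to 1.80). The interval for CYR61 reaches 0.30 and that for CTGF 0.33, beside changes from control of 1.14 to 1.23, while that for TEAD1 is wide. A p above the threshold does not show that the lines act alike.

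Other genes of the pathway were counted next. The lists that follow were chosen with earlier results of these data known, and their counts are read beside the percentages above. Of 21 Hippo kinases and upstream regulators, 18 were tested, and WWC1 and WWC3, which encode scaffold proteins that activate LATS kinases, rose in both lines. WWC1 had 31.2 ± 2.17 TPM in the NFE2L1DC line, 22.5 ± 0.349 TPM in NFE2L1 cells and 14.6 ± 1.33 TPM in control cells (SD, n = 3 each). WWC3 had 19.5 ± 2.04 TPM with NFE2L1DC, 23.6 ± 1.32 TPM with NFE2L1 and 12.5 ± 2.08 TPM in control cells. The WWC1 call held in 18 of 18 alternatives for NFE2L1DC and 17 of 18 for NFE2L1, and the WWC3 call in 4 of 18 and 17 of 18. No member of the list fell in either comparison with control. The core kinases did not pass the test with all libraries: STK4 had 6.23 ± 1.65 TPM with NFE2L1DC, 7.92 ± 2.01 TPM with NFE2L1 and 3.95 ± 1.86 TPM in control cells, and it was called for both lines without control replicate 3, as were SAV1, MOB1A, FRMD6 and MAP4K4. Without that library 7 of the list were higher for NFE2L1DC and 10 for NFE2L1, and none lower. The list median was 0.26 for NFE2L1DC and 0.31 for NFE2L1, beside 0.12 and 0.17 over all genes tested. With GC content and length corrected it was 0.12 and 0.14, beside 0.11 and 0.17. Under median-of-ratios scaling 1 rose with NFE2L1DC and 2 with NFE2L1.

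Of the 8 YAP partners and TEAD cofactors, 6 were tested and TEAD4 alone rose, while none fell. TEAD4, the most abundant TEAD gene in these libraries, had 116 ± 3.74 TPM in the NFE2L1DC line, 120 ± 4.16 TPM in NFE2L1 cells and 83.7 ± 2.72 TPM in control cells (SD, n = 3 each). Its log2 fold change was 0.47 (limma adjusted p = 0.00924) and 0.52 (adjusted p = 0.00208). Under median-of-ratios scaling it was called in neither comparison. Without control replicate 3, TEAD4 and VGLL3 were called higher for both lines, and TEAD2 was called lower for NFE2L1. WWTR1, which encodes TAZ, had 21.6 ± 3.56 TPM with NFE2L1DC, 19.5 ± 0.707 TPM with NFE2L1 and 18.5 ± 4.40 TPM in control cells, and did not pass. VGLL1 and VGLL2 were listed at 0 in all libraries.

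Of 20 other YAP and TAZ target genes, 15 were tested. With NFE2L1DC 2 rose and 1 fell, and with NFE2L1 4 rose and 1 fell. FJX1 and FOXF2 rose in both, the FJX1 call holding in 6 of 18 alternatives for NFE2L1DC and 18 of 18 for NFE2L1. FOXF2, a forkhead transcription factor, had 72.2 ± 4.13 TPM with NFE2L1DC, 63.9 ± 3.53 TPM with NFE2L1 and 48.0 ± 1.26 TPM in control cells (SD, n = 3 each). F3, which encodes tissue factor, and NT5E, the ectonucleotidase CD73, rose with NFE2L1. IGFBP3, a secreted binder of insulin-like growth factors, fell in both: it had 71.7, 66.3 and 68.6 TPM with NFE2L1DC, 107, 102 and 117 TPM with NFE2L1 and 148, 185 and 170.1 TPM in control cells. It thus went against CYR61 and CTGF in the same libraries. The median of the list was 0.38 for NFE2L1DC and 0.43 for NFE2L1. Under median-of-ratios scaling none of the list rose and 1 fell with NFE2L1DC, while 4 rose and 1 fell with NFE2L1. Without control replicate 3, 7 rose and 1 fell with NFE2L1DC, and 9 rose and 2 fell with NFE2L1.

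**Figure D5:**
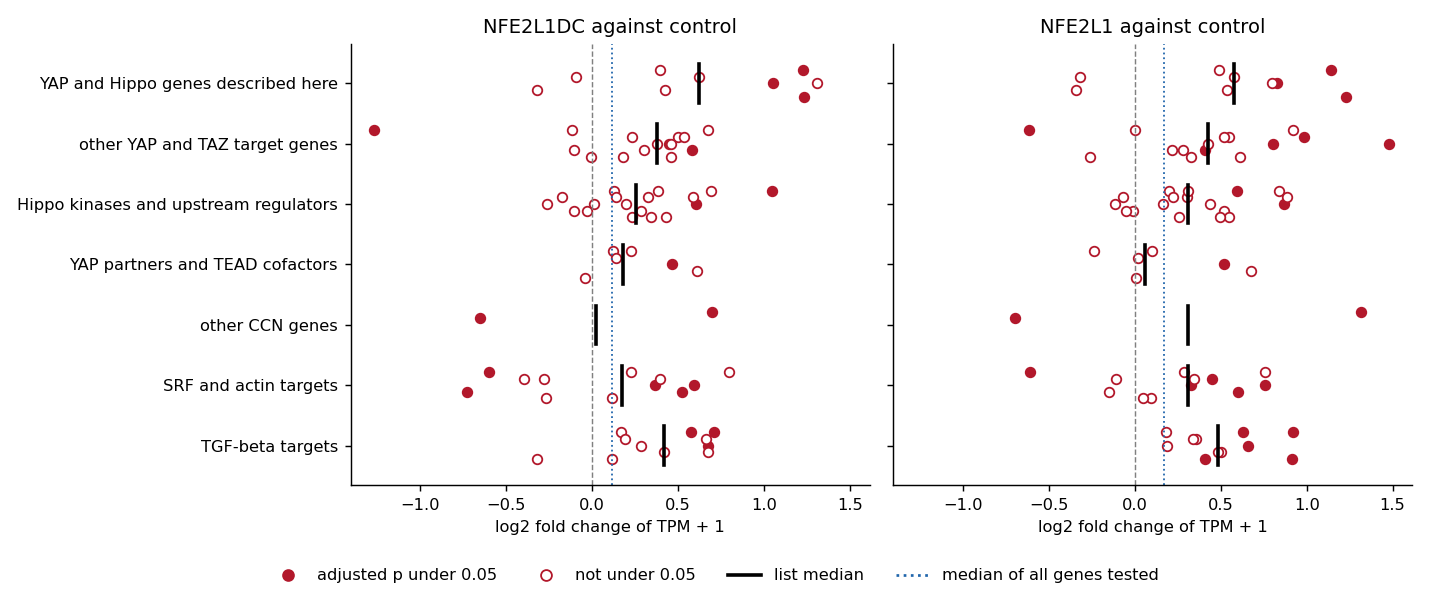
Log2 fold change of TPM + 1 (x axis) against control for the genes tested in each list, filled where the limma adjusted p was under 0.05, with the list median as a bar and the median of all genes tested (0.12 and 0.17) as a dotted line. CYR61 and CTGF lie at 1.14 to 1.23, to the right of most genes of the other lists, and IGFBP3 is the lowest point for NFE2L1DC at -1.27.

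The remaining CCN genes went both ways. NOV, also named CCN3, rose, with 11.7 ± 1.03 TPM in the NFE2L1DC line, 18.4 ± 1.28 TPM in NFE2L1 cells and 6.80 ± 0.707 TPM in control cells (SD, n = 3 each). The limma adjusted p was 0.0214 for NFE2L1DC and 0.000356 for NFE2L1. The NOV call held in 11 of 18 alternatives for NFE2L1DC and 18 of 18 for NFE2L1. WISP2, also named CCN5, which lacks the C-terminal module of the other CCN proteins, fell to 313 ± 14.6 TPM with NFE2L1DC and 303 ± 15.4 TPM with NFE2L1, against 493 ± 32.02 TPM in control cells. Its limma adjusted p was 0.00253 and 0.000595. WISP1 and WISP3 were near or at 0 and were not tested. Within the family, CYR61, CTGF and NOV were thus higher and WISP2 lower in both lines.

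CYR61 and CTGF also respond to SRF and to TGF-beta, so targets of both were counted. Of 13 SRF and actin genes, 12 were tested, with 3 higher and 2 lower for NFE2L1DC and 4 higher and 1 lower for NFE2L1. Under median-of-ratios scaling 0 were higher and 2 lower for NFE2L1DC, and 2 higher and 1 lower for NFE2L1. SRF itself had 52.7 ± 3.93 TPM with NFE2L1DC, 51.3 ± 0.948 TPM with NFE2L1 and 40.7 ± 0.421 TPM in control cells (SD, n = 3 each; limma adjusted p = 0.0463 and 0.0368). CNN2 and FHL2 rose and ACTA2, smooth-muscle actin, fell in both. For NFE2L1DC these calls held in few alternatives, SRF and CNN2 in 6 of 18 each and ACTA2 in 5 of 18, while FHL2 held in 12 of 18. For NFE2L1, SRF held in 7 of 18, ACTA2 in 11 of 18 and CNN2 and FHL2 in 17 of 18 each. With control replicate 3 left out, 5 of the list were higher and 4 lower for NFE2L1DC, and 5 higher and 1 lower for NFE2L1. TAGLN, a smooth-muscle actin binder, fell with NFE2L1DC to 45.6 ± 3.62 TPM, against 76.5 ± 10.2 TPM in control cells. Of 12 genes listed as TGF-beta targets, 11 were tested, with 3 higher for NFE2L1DC and 5 higher for NFE2L1, and none lower. ID1, SMAD6 and THBS1 rose in both, and TGFBI passed the test with NFE2L1. With all libraries, SMAD7, SKI, SKIL, PMEPA1, ID2 and ID3 passed in neither comparison with control. The THBS1 call held in 6 of 18 alternatives for NFE2L1DC and the TGFBI call in 5 of 18 for NFE2L1. Under median-of-ratios scaling 1 was higher for NFE2L1DC and 3 for NFE2L1. When control replicate 3 was left out, 5 were higher and 1 lower for NFE2L1DC, and 6 were higher for NFE2L1.

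Among candidate genes, those whose profile across the 9 libraries lay nearest to that of CYR61 were RFTN1, WFDC1, FOXQ1, SUSD2 and DUSP1. Likeness was the root mean square difference of centred log2(TPM + 1), and candidates were the 7298 other tested genes with a mean of at least 10 TPM. It was 0.123 for RFTN1, 0.127 for WFDC1, 0.146 for FOXQ1, 0.170 for SUSD2 and 0.177 for DUSP1, beside a median of 0.534 over all candidates. For CTGF the nearest were RFTN1 at 0.112, CYR61 at 0.117, IER3 at 0.169, WFDC1 at 0.183 and DUSP1 at 0.188. RFTN1, which encodes a lipid raft protein, had means of 22.7 TPM with NFE2L1DC, 23.8 TPM with NFE2L1 and 8.66 TPM in control cells. Among the genes described here, CTGF was 0.117 from CYR61, nearer than RFTN1, but its mean was below 10 TPM, so it was no candidate. AMOTL2 was 0.205 from CYR61, LATS2 0.358, YAP1 0.477, AJUBA 0.603, AMOTL1 0.676, TEAD1 0.708 and AXL 0.724. CYR61, CTGF and AMOTL2 thus had like profiles, and those of AJUBA, AMOTL1, TEAD1 and AXL were farther from CYR61 than the median candidate. These are descriptions over 9 libraries that fall into 3 groups. The calls come from the same libraries, so likeness is not separate evidence beside them.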

How the data were processed

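RNA was sequenced by a company from cells lysed in Trizol, per the labels' protocols. The deposited table gives TPM per gene and library; per the submitters' processing notes the software was CASAVA and the genome build GRCh38. The aligner, quantifier, annotation release and strandedness are not stated in the labels. Groups were taken from the sample titles, and 57836 of 58174 gene identifiers matched GENCODE release 29, which supplied transcript length and GC content.

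Group means of log2(TPM + 1) were modelled over 14118 genes and all 9 libraries with limma 3.58.1 under R 4.3.3 (moderated variances with a trend, 3.34 prior degrees of freedom, 2-sided, Benjamini-Hochberg adjustment per comparison). Log2 fold changes on this scale understate changes of low genes; folds are ratios of mean TPM. The procedure was tested on simulated data. Alternatives were a pseudocount of 0.1, no filter, a filter at 5 TPM, median-of-ratios scaling, a replicate block, a correction for GC content and length by splines in each library, only the groups compared, no variance trend, and each library left out.

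The genes described and all lists were chosen with earlier results of these data known. Genes named beyond the 10 and NFE2L1 are list members passing the test in any comparison, and the 5 nearest candidate profiles to CYR61 and CTGF. STK4, SAV1, MOB1A, FRMD6, MAP4K4, WWTR1, VGLL3, TEAD2, SMAD7, SKI, SKIL, PMEPA1, ID2, ID3 and genes listed at 0 were named after their values were seen. The values of 1 list gene are not reported here. Promoter windows are RefSeq's, searched on both strands for GGAATG and for AP-1, antioxidant response and CArG motifs.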

Additional observations from a re-analysis of the deposited data

Results flagged for a closer look

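The lines differed from each other in the 5 list genes given here, by limma on NFE2L1DC against NFE2L1, which is also the test of the difference between their changes from the shared control libraries. All 5 were lower with NFE2L1DC, as were most calls over all genes: of 112 genes called between the lines, 101 were lower and 11 higher. For IGFBP3 the log2 difference was -0.65 (adjusted p = 0.0153), for NT5E -1.10 (0.0369), for ACTG2 -0.84 (0.00773), for TGFBI -0.73 (0.0166) and for CD68 -0.55 (0.0474). None is among the 10 genes described. In TGFBI the lines lay on opposite sides of control, at 37.9 ± 4.68 TPM with NFE2L1DC and 63.1 ± 3.00 TPM with NFE2L1, against 47.5 ± 3.48 TPM in control cells (SD, n = 3 each). ACTG2 did likewise, at 12.4 ± 0.263 TPM with NFE2L1DC and 23.0 ± 1.24 TPM with NFE2L1, against 16.6 ± 1.70 TPM in control cells. Against control, the lower NFE2L1DC values did not pass the test for either gene, and the higher NFE2L1 values did. Those NFE2L1 calls held in 5 of 18 alternatives for TGFBI and in 9 of 18 for ACTG2. The call between the lines held in 16 of 18 alternatives for ACTG2, in 11 of 18 each for IGFBP3 and TGFBI, in 5 of 18 for NT5E and in 2 of 18 for CD68.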

How the results depend on the processing

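CYR61 kept its call and direction against control in all 18 alternatives for both lines, with log2 fold changes of 1.11 to 1.28 for NFE2L1DC and 0.96 to 1.19 for NFE2L1, and CTGF did in 17 of 18 and 18 of 18. The genes described that changed numbered 2 to 6 for NFE2L1DC and 2 to 7 for NFE2L1 when each library was left out, the highest without control replicate 3, and 0 for NFE2L1DC against NFE2L1 in every alternative. With control replicate 3 as the only control, chosen after seeing the data and with the lone library assumed to vary like the other groups, 1 changed with NFE2L1DC. Under median-of-ratios scaling, which brings the median change of all genes to 0.02 for NFE2L1DC, against 0.12 without it, and to 0.01 for NFE2L1, against 0.17, 5 changed with NFE2L1: the same 3 higher, and AXL and AMOTL1 lower. Over all genes, NFE2L1DC against control gave 317 changed under that scaling, 101 with only the groups compared, 313 without the variance trend, 65 with control replicate 3 as the only control, and 110 to 3440 when each library was left out. NFE2L1 against control gave 947 with no filter, 848 with only the groups compared, 302 with control replicate 3 as the only control, and 501 to 5056 when each library was left out. NFE2L1DC against NFE2L1 gave 36 to 148 when each library was left out. The cause of these shifts was not tested.

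The replicate block gave 198, 872 and 58 changed genes in the 3 comparisons in the same order, and the same 3 genes described were called in both comparisons with control. The labels do not say that the numbers pair libraries. Deviations of same-numbered libraries correlated between -0.19 and 0.11, and 3 of 9 libraries correlated best with their own number. With 3 libraries in each group, these values cannot show whether libraries were paired.

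Directions turned in these cases, none of them called. Against control replicate 3 alone, TEAD1 was at -0.25 and -0.76 and YAP1 at -0.37 and -0.26 for NFE2L1DC and NFE2L1. AMOTL1 for NFE2L1DC against control ran from -0.20 to 0.090 over the fits without 1 library. For NFE2L1DC against NFE2L1 with GC content and length corrected, CTGF was at -0.0091 and AXL at -0.0049. Over the fits without 1 library CTGF ran from -0.092 to 0.095, AXL from -0.050 to 0.13, AJUBA from -0.47 to 0.21 and LATS2 from -0.028 to 0.084. Depth is unknown because no counts were used, so no counting error can be given for low genes such as ANKRD1.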
